A study of Drosophila melanogaster with 2 samples.

Results

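Deep intronic peaks are the Sage-GFP binding regions that lay inside a protein-coding gene, in no annotated exon, and more than 2000 bp from every annotated transcription start site (TSS). They were taken from the peak list that passed the submitters' threshold on the irreproducible discovery rate (IDR, a measure of how alike regions rank in replicates). There were 676 such peaks among the 3292 peaks that lay on the major arms and chromosome 4 (20.5%, exact binomial 95% interval 19.2 to 22.0); another 20 peaks of the list were mitochondrial. The assay was chromatin immunoprecipitation with sequencing (ChIP-seq) with an anti-GFP antibody. The chromatin came from whole wandering larvae of the third instar, males and females pooled, of a stable transgenic Drosophila melanogaster line in which Sage carries GFP at its C-terminus. The 1 group held 2 biological replicates, numbered 3 and 4, and no untagged or other condition was analysed here. The larvae's age is labelled unknown, and the sources used here do not name the promoter that drives the fusion. Whole animals mix all tissues, so strong binding in a few cells and weak binding in many cannot be told apart.

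Sage is a transcription factor of the basic helix-loop-helix (bHLH) family, best known from the embryonic and larval salivary gland. Factors of this family bind as dimers to the E-box, CANNTG. Introns of long Drosophila genes hold many of their enhancers, which act on promoters at a distance, and genes for developmental regulators are known for long introns. At the end of the larval stages the steroid ecdysone acts through its nuclear receptor and a cascade of early genes, many of which are themselves nuclear receptors.

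The sequences under 6 of the strongest deep intronic peaks are shown because they illustrate the base composition and motif content described further on. Each is a stretch of the plus strand of the RefSeq Release 6 genome (dm6 coordinates, counted from 1) with 100 bases on either side of the summit. Capitals mark E-boxes (CANNTG), GATAA, forkhead cores (TGTTTAC, its variant TATTTAC, or the variant TGTTTGC), and runs of at least 8 A, each on either strand.
CG32486, chr3L:3060703-3060903: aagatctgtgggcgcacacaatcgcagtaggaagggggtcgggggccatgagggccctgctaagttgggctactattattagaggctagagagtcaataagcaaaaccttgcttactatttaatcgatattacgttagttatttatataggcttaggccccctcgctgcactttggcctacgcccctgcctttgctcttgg
Eip75B, chr3L:18011801-18012001: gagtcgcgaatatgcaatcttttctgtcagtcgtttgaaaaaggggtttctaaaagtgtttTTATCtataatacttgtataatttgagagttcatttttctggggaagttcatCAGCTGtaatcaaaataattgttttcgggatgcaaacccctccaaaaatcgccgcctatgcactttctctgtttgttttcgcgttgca
Eip78C, chr3L:21253805-21254005: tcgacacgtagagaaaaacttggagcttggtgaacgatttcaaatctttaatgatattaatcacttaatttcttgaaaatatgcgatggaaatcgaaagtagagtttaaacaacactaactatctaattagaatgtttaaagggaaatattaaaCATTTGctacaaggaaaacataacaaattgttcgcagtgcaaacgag
Tlk, chrX:3742140-3742340: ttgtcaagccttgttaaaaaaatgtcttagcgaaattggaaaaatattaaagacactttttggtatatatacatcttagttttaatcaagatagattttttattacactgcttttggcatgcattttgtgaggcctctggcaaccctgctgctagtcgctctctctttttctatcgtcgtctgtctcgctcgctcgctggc
Raf, chrX:2300624-2300824: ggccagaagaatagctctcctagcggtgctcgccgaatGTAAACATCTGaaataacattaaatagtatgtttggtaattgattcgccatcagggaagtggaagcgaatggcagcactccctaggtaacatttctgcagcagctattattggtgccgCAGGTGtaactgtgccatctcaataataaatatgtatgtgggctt
Su(Tpl), chr3L:19903180-19903380: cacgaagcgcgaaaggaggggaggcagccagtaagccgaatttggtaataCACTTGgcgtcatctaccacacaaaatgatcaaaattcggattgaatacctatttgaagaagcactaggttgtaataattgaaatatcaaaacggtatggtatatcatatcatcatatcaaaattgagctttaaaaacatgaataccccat

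The strongest, in CG32486, held none of the marked motifs in this stretch. The window of Eip75B held 1 E-box and 1 GATAA, that of Eip78C 1 E-box, and that of Su(Tpl) 1 E-box. The window of Raf held 2 E-boxes and 1 forkhead core, which overlaps one of them. That of Tlk held none of the marked motifs. GC content over the printed stretches ran from 30.9% in Eip78C to 49.3% in CG32486. No motif was common to all 6 windows.

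The peak in CG32486 had the highest signal of all deep intronic peaks. The signal is the peak caller's own value per region, on a scale the sources used here do not state, and it serves only to rank regions within a list. In the pooled list it was 826 (3L 3060658 to 3060957, 5724 bp from the nearest TSS), and in the replicates' own lists it was 377 in replicate 3 and 456 in replicate 4. Eip75B, which encodes a nuclear receptor of the early ecdysone response, held the next (signal 774, 3L 18011747 to 18012055, 12080 bp from a TSS). Its signal was 324 in replicate 3, at rank 32 of 29999 regions, and 475 in replicate 4, at rank 31 of 30000. Eip78C, another ecdysone-induced nuclear receptor gene, held a peak of signal 652 (3L 21253737 to 21254048), with 268 in replicate 3 (rank 47) and 383 in replicate 4 (rank 46). A peak in CG12769 (signal 676, 2R 8060857 to 8061175) and a peak in babos (576, 2R 22397487 to 22397731) were of similar strength. These peaks stood near the top of each replicate's list, which follows in part from their choice by the pooled signal of the same replicates.

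The other 10 of the 15 strongest fell in genes of several kinds. Tlk, the Tousled-like kinase gene with a role in chromatin assembly, held a peak of signal 553 (X 3742090 to 3742351), with 271 in replicate 3 and 287 in replicate 4. Raf, the MAP kinase kinase kinase gene of receptor tyrosine kinase signalling, held a peak of signal 527 (X 2300606 to 2300837), with 253 in replicate 3 and 247 in replicate 4. Su(Tpl), which encodes an ELL elongation factor, held a peak of signal 506 (3L 19903152 to 19903398), with 209.6 in replicate 3 and 289.6 in replicate 4. That peak also lay in an intron of Mi-2, a chromatin remodeller gene. The gene spen, for an RNA-binding transcriptional corepressor, held a peak of signal 445 (2L 166620 to 166812), ranked 341 in replicate 3 and 66 in replicate 4. Hr4, a nuclear receptor gene of the ecdysone cascade, held a peak of signal 424 (X 1951805 to 1952032), ranked 130 and 134. The gene gpp, for the histone H3K79 methyltransferase, held a peak of signal 418 (3R 6424007 to 6424233), 14529 bp from the nearest TSS. Peaks in heph, for a polypyrimidine tract-binding protein (417), CG8034 (467), CG43658 (443) and CG13917 (400) completed the 15. All 15, chosen by pooled signal, were met by a region among the strongest of each replicate (as many regions as the IDR list holds). Their ranks were 341 or better in replicate 3 and 134 or better in replicate 4. Of the 15, 12 lay in intron 1 of at least 1 transcript, and for 5 the nearest TSS was that of a gene other than the host.

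Around the distance limit, peaks on either side had signals in the same range. The nearest inside it lay in puc, the JNK phosphatase gene (2006 bp from a TSS, signal 139), spg (2019 bp, 109) and CG12535 (2020 bp, 250.0). The nearest outside it lay in RhoGAP18B (1996 bp, signal 196), lbk (1993 bp, 100.2) and crol (1991 bp, 203).

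Deep intronic sequence made up 30.2% of the arms (40.4 Mb) and held 20.5% of the peaks. The density was 16.7 peaks per Mb, against 46.9 per Mb in introns nearer a TSS, over 500 and up to 2000 bp away, and 85.8 per Mb within 500 bp of a TSS. Intergenic sequence at the same distance, over 2000 bp from any TSS, held 8.53 peaks per Mb (248 peaks in 29.1 Mb). The strongest regions of each replicate, equal in number to the IDR list, gave the same order. Deep intronic density was 15.7 per Mb in replicate 3 and 16.4 per Mb in replicate 4, and distal intergenic density was 7.19 and 8.12 per Mb. These and later differences between kinds of peak were not tested, since regions of 1 library are not replicates.

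Within deep introns, density fell with distance from a TSS. It was 29.7 peaks per Mb from 2 to 3 kb (155 peaks), 23.8 from 3 to 5 kb (181), 17.9 from 5 to 10 kb (194), 13.5 from 10 to 20 kb (113) and 4.19 beyond 20 kb (33). Each replicate's own list gave the same order, from 27.8 to 3.55 per Mb in replicate 3 and from 30.6 to 4.70 in replicate 4. The median member lay 5054 bp from a TSS and the farthest 42320 bp, where the median deep intronic base lay 7970 bp away. Median signal did not follow the same order, being 132 from 2 to 3 kb, 123 from 10 to 20 kb and 159 beyond 20 kb.

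**Figure D1:**
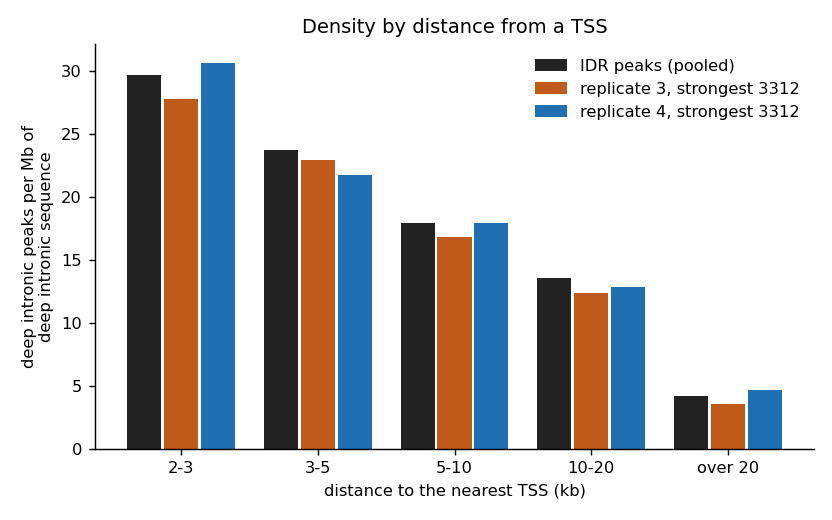
Deep intronic peaks per Mb of deep intronic sequence (y axis) by distance to the nearest TSS in kb (x axis), for the pooled IDR peaks and for the strongest regions of each replicate, equal in number. Density falls from 29.7 to 4.19 per Mb in the pooled list and in the same order in each replicate.

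The large arms held deep intronic peaks at similar densities. They ran from 14.5 per Mb on 3R (160 peaks) to 18.3 on 2L (117), with 18.0 on X (134), 17.7 on 2R (126) and 17.4 on 3L (139). Chromosome 4 had 0 deep intronic peaks in 0.431 Mb, and its deep introns held 1 of replicate 3's strongest regions and 0 of replicate 4's. On X they were 25.6% of that chromosome's peaks, against 18.1% on 3L. The density on X was 18.9 per Mb in replicate 3's list, above 3L, and 15.6 in replicate 4's, below 3L.

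Deep introns held a smaller share of the strongest regions than of the weaker ones. Of the first 100 regions of the pooled list, 89 lay on the arms and 9 of these were deep intronic (10.1%). The share was 18.8% over the next 400 ranks, 24.7% from the end of the IDR list to rank 5000 and 34.8% over ranks 20001 to 30000. It passed the deep intronic share of sequence, 30.2%, beyond rank 10000. Replicate 3 went from 10 of 100 regions to 33.5% between the same first and last ranks, and replicate 4 from 11.5% to 33.9%. The promoter share went the other way, from 61.8% to 15.8% in the pooled list. Among peaks past the IDR threshold, median signal was 133 in deep introns, 135 at promoters and 136 in distal intergenic sequence, so the kinds overlapped widely.

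**Figure D2:**
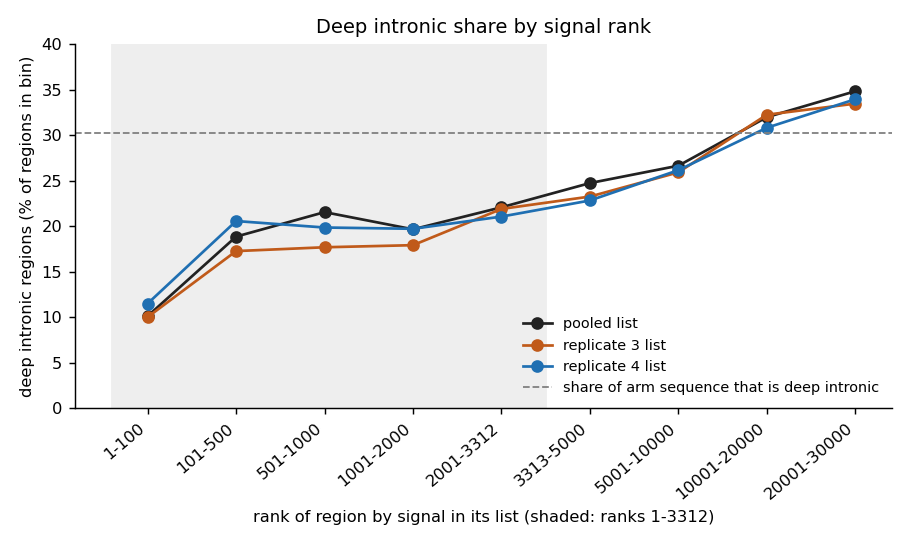
Share of regions that are deep intronic (y axis, %) by rank of signal within a list (x axis), for the pooled list and each replicate's own list. The shaded ranks are those of the IDR list, and the dashed line is the deep intronic share of arm sequence (30.2%). The share is near 10% in the first 100 regions of each list and above 33% in the last bin.

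Most deep intronic peaks were found in both replicates, with ranks that differed. All 676 met a region somewhere in replicate 4's list and 662 met a region in replicate 3's. Within the strongest regions of each list, equal in number to the IDR list, 382 were met in both (56.5%, exact binomial 95% interval 52.7 to 60.3), 105 in replicate 3 alone, 164 in replicate 4 alone and 25 in neither. The share met in both was 58.4% for promoter peaks, 58.8% for introns nearer a TSS and 60.9% for distal intergenic peaks. For deep intronic peaks, 72.0% were among the strongest of replicate 3 and 80.8% among those of replicate 4. The IDR list is the head of the pooled list, ranked by signal. It was drawn from these same 2 libraries, so a high share met in both follows in part from that choice. Over the 662 peaks, which share the same 2 libraries, the signals of the replicates had a rank correlation (Spearman) of 0.420, and after log2 a Pearson correlation of 0.538.

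The peaks with the most unlike ranks were all stronger in replicate 4. The peak in spg ranked 20424 in replicate 3 and 1637 in replicate 4, with signals of 18.0 and 83.7. That in rgr ranked 20854 and 2917, and that in Psc, a Polycomb group gene, 18820 and 2091. In brat, for a translational repressor, ranks were 17358 and 648, and in Bacc 15742 and 393. Beyond rank 10000 there were 22 members in replicate 3 and 1 in replicate 4. At the other end, 62 peaks were within the first 500 regions of both lists.

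**Figure D3:**
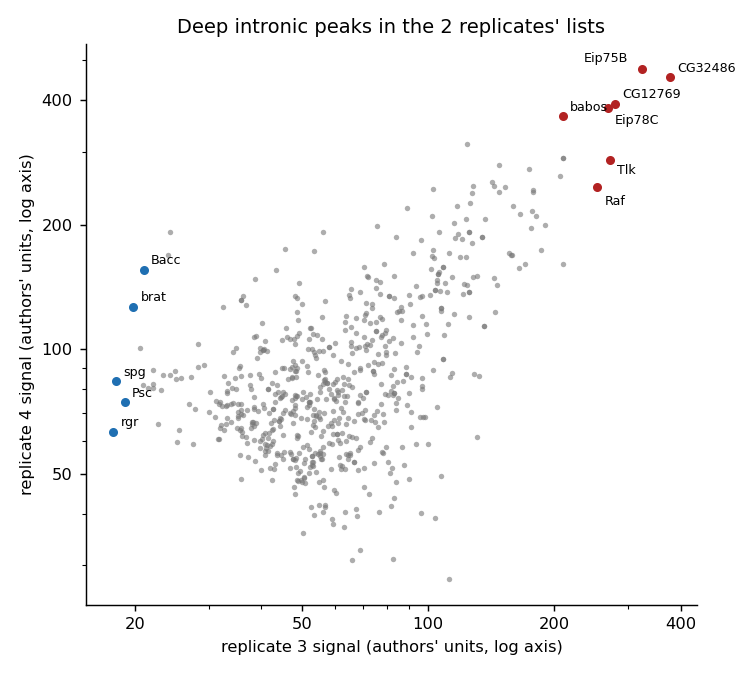
Signal of the 662 deep intronic peaks with a region in both replicates, replicate 3 on the x axis and replicate 4 on the y axis (authors' units, log axes). Each point is a peak. Red points are the 7 strongest peaks of the pooled list, which are high in both, and blue points are the 5 with the largest rank gap, which are low in replicate 3.

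Deep intronic peaks lay in intron 1 more often than deep intronic bases did. Counted once per peak, so that a gene with many peaks counts many times, the median host length was 40.7 kb (lowest 4.62, highest 394). The median position was 38.6% of the way from the host's 5' end. The position of deep intronic bases was not computed, so no skew along the gene is shown. Peaks were in intron 1 of at least 1 host transcript in 416 of 676 cases (61.5%, exact binomial 95% interval 57.8 to 65.2), where 36.9% of deep intronic bases were. Counting a peak only where every transcript with it in an intron had it in intron 1, the share was 33.9%, beside 21.2% of bases that lay in intron 1 alone. Intron 1 also lies close to TSSs, so the shares were compared within bins of distance. They were 69.0% of peaks and 53.8% of bases from 2 to 3 kb, 62.9% and 42.0% from 5 to 10 kb, and 39.4% and 15.3% beyond 20 kb. The peaks' share was the higher in each of the 5 bins. The median peak was 2742 bp from the nearest exon, in an exon-free stretch of 11.3 kb, and the longest such stretch was 94.5 kb.

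The host was not always the gene with the nearest TSS. It was for 433 peaks (64.1%), and for the other 243 the nearest TSS was that of another gene, protein-coding for 130 and a non-coding RNA gene (class ncRNA) for 85. In Eip78C the nearest TSS was that of CG43218, 4115 bp away. In CG32486 it was that of CG16753. Peaks in introns of more than 1 protein-coding gene numbered 20. The list gives no link between a peak and the gene it may act on, so hosts are named by position.

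In all, 379 of 4216 protein-coding genes with any deep intronic sequence held a peak (8.99%). The share rose with the amount of such sequence, from 2.0% of 2806 genes with up to 5 kb to 44.9% of 118 genes with 50 to 100 kb. It was 31.0% of the 42 genes with over 100 kb, where density was lowest, at 4.11 peaks per Mb against 25.4 in genes with 5 to 20 kb. Replicate 3's own strongest regions gave 365 hosts, of which 307 were also among the 379 (84.1% of its hosts and 81.0% of the pooled hosts). Replicate 4 gave 369, of which 329 were (89.2% and 86.8%).

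Hosts more often had a peak at a TSS too. An IDR summit within 1 kb of a TSS was found for 931 of the 4216 genes (22.1%). It was found for 183 of 379 hosts (48.3%) and for 748 of 3837 genes without a deep intronic peak (19.5%). Among genes with 20 to 50 kb of deep intronic sequence the shares were 59 of 118 and 12.3% of 293, and among those with 5 to 20 kb 48.2% of 139 and 21.5% of 699. In the 183 hosts with both, the strongest deep intronic peak had the higher signal in 84 (45.9%), with medians of 164 in deep introns and 158 at TSSs. The other 196 hosts (51.7%) had no peak within 1 kb of any of their TSSs, and their strongest deep intronic peaks had a median signal of 145.

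Peaks gathered in some genes. Of the 379 hosts, 234 held 1 peak and 41 held 4 or more, and these 41 held 31.8% of all deep intronic peaks. The gene sbb, for the corepressor Scribbler, held 13 peaks in 46.8 kb of deep intronic sequence (2R 18278198 to 18357296), and 9 of them stood within 12.5 kb. The strongest of the 13 had a signal of 333 and ranked 381 in replicate 3 and 164 in replicate 4. Tet, for a homologue of the Tet DNA dioxygenases, also held 13 (3L 2786207 to 2879158, 74.8 kb of deep intronic sequence), with signals from 96.1 to 323. Its strongest peak ranked 146 and 365. Eip75B held 9 (3L 17950953 to 18064696), of which 6 stood within 7.52 kb, the peak of signal 774 among them.

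The gene tara, for the nuclear protein Taranis, held 8 peaks, with the strongest (signal 375, 3R 16236822 to 16237084) at rank 78 in replicate 3 and 360 in replicate 4. In kirre, for an immunoglobulin-domain receptor of myoblast fusion, 8 peaks were spread over 288 kb of deep intronic sequence, which is 2.78 per 100 kb, against 27.8 in sbb. Mnt, for the bHLH-zipper antagonist of Myc, held 7 in 18.5 kb (37.8 per 100 kb), none with a signal over 121. The zinc finger gene jing held 7, with signals from 99.0 to 211. Hr4, CG1677, heca and dlp, a glypican gene, held 6 each, with top signals of 424, 247, 230 and 223. The clock gene vri, which encodes a bZIP repressor, held 4 in 7.09 kb (56.4 per 100 kb). In these genes, density and top signal did not run together: Mnt was dense and weak, and Hr4 less dense and strong.

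Some neighbouring peaks may not be separate. The closest summits were under 500 bp apart, and 21 pairs met the same single region in each replicate. Joining summits within 500 bp left 655 sites, with 11 in sbb, 12 in Tet, 8 in Eip75B, 7 in tara and 6 in Mnt. With neighbours counted within 5 kb, 304 peaks (45.0%) had another deep intronic peak near them and 372 had none. When IDR peaks of every kind on the arms were counted, 393 (58.1%) had a neighbour that near.

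**Figure D4:**
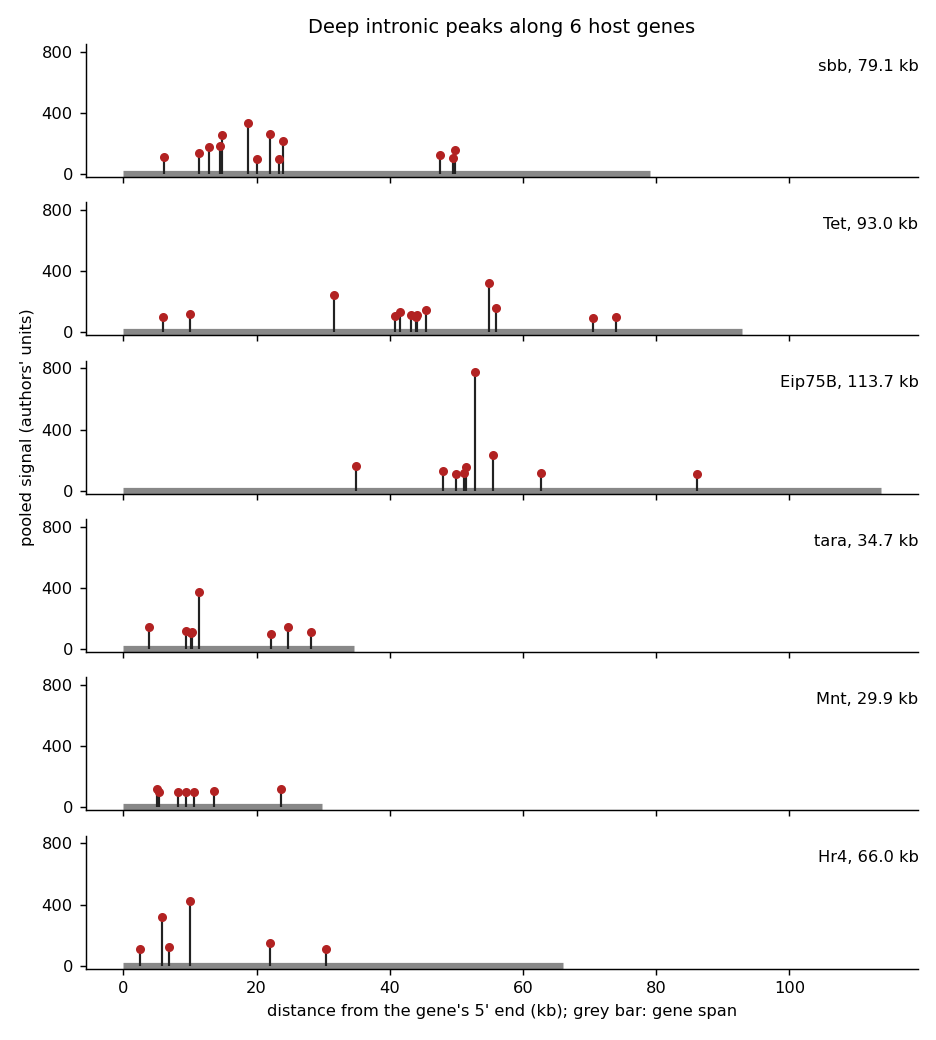
Pooled signal (y axis, authors' units) of each deep intronic peak against its distance from the 5' end of the host gene in kb (x axis), for 6 of the 10 hosts with the most peaks. Grey bars are the gene spans and red points are peaks. Most peaks of sbb and Hr4 gather toward the 5' end, and 3 of sbb form a second group farther from it. The strongest of Eip75B reaches 774, and those of Mnt stay at or below 121.

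Genes of the ecdysone response held deep intronic peaks in 13 of the 19 listed genes with deep intronic sequence (68.4%, beside 8.99% of all such genes). They carried 40 peaks, which is 67.4 per Mb beside 16.7 per Mb in all deep introns. The list, like the others below, was drawn up with earlier results of these data known. Its genes are long, with a median of 25.8 kb of deep intronic sequence. Of all genes with 20 to 50 kb of such sequence, 28.7% were hosts. Replicate 3's own strongest regions gave 11 of 19 genes and replicate 4's 14. The nuclear receptor genes came first, with Eip75B, Eip78C and Hr4 as given above. EcR, the ecdysone receptor gene, held 4 peaks, the strongest of signal 189 (2R 6145773 to 6146162), ranked 635 in replicate 3 and 1035 in replicate 4. Hr39 held 2 (top signal 196) and Hr38 held 1 (139).

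Among the other genes of the cascade, tai, a coactivator gene of the receptor, held 4 peaks, the nearest 25012 bp from any TSS, of which 2 met the same region in each replicate. Its strongest had a signal of 313 (2L 9211279 to 9211477) and ranked 325 and 244. E23, for an ABC transporter, held 4 (top signal 284), and Eip74EF, for an Ets factor of the early response, 4 (183). Blimp-1, for a zinc finger repressor, held 1 (263), Eip63E, for a cyclin-dependent kinase, 2 (234), Kr-h1 1 (114) and br, the Broad factor gene, 1 (99.6). No deep intronic peak was found in Eip93F, ftz-f1, Eip63F-1, Hr3, Cyp18a1 or crol, of which Eip93F has 47.3 kb of deep intronic sequence. Of these genes, ftz-f1, Eip63F-1, Hr3 and crol had an IDR summit within 1 kb of a TSS. In crol another intronic peak lay just outside the limit (1991 bp, signal 203). Of the 40 peaks, 25 were among the strongest of both replicates (62.5%, beside 56.5% of all deep intronic peaks).

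Genes of the signalling pathways held peaks in 16 of 28 cases (57.1%, beside 8.99%), with 33 peaks at 67.6 per Mb. These 28 genes had a median of 9.54 kb of deep intronic sequence, and 16.6% of all genes with 5 to 20 kb were hosts. Replicate 3's strongest regions gave 14 hosts and replicate 4's 14. The highest signals were in ex, a Hippo pathway gene (400, 2L 442017 to 442205, ranks 224 and 118), and Dad, an inhibitor of Dpp signalling (361, 3R 17065125 to 17065280, ranks 201 and 135). They were followed by tkv, a Dpp receptor gene (319, 3 peaks), fz2, a Wingless receptor gene (279, 4 peaks), Egfr, the EGF receptor gene (268, 4 peaks), and fz (250, 3 peaks). The other hosts on the list had top signals from 99.3 to 245. Ligand genes were among them, dpp with 1 peak (188) and Delta with 2 (152), while hh, wg and Ser held none.

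Genes for chromatin proteins and corepressors gave 10 of 23 (43.5%, beside 8.99% of all genes with deep intronic sequence) with 43 peaks, of which sbb and Tet held 26. Without them the density was 84.8 per Mb, where it was 134 with them. The highest signals besides that of Tlk were in Psc (397, ranks 232 and 111), trx, a trithorax group gene (337, 3 peaks), sbb (333), Tet (323) and ph-p, a Polycomb group gene (258, 1 peak).

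Of the remaining lists, disc and patterning factors gave 7 of 29 genes (24.1%, beside 8.99%), led by shn (335, 5 peaks), hth (170, 3 peaks) and bi (138, 3 peaks). These 29 genes had a median of 12.05 kb of deep intronic sequence, and 16.6% of all genes with 5 to 20 kb were hosts. In vg, Dll, ap, eya and dac no deep intronic peak was found, though Dll had an IDR summit within 1 kb of a TSS. The insulin and TOR list gave 2 of 9 genes (22.2%, beside 8.99%). They were InR, the insulin receptor gene (4 peaks, top signal 182), and foxo, the transcription factor gene downstream of it (1 peak, 224). The 9 genes had a median of 2.22 kb of deep intronic sequence, but InR has 26.4 kb and foxo 24.8 kb. Of all genes with up to 5 kb 2.0% were hosts, and of those with 20 to 50 kb 28.7%. The strongest peak in InR ranked 12371 in replicate 3 and 321 in replicate 4, and 1 of the 4 had no region in replicate 3. The peak in foxo ranked 12009 in replicate 3 and 236 in replicate 4. Of the 5 peaks of these 2 genes, 1 was among the strongest of both replicates, and replicate 3's own strongest regions gave 1 host on this list where replicate 4's gave 2. The clock list gave 2 of 9 (22.2%, beside 8.99%), vri (319) and cwo (173). Its 9 genes had a median of 3.25 kb of deep intronic sequence, with 7.09 kb in vri and 6.58 kb in cwo.

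Factors of the salivary gland, the tissue Sage is known for, gave 1 of 8 genes (12.5%, beside 8.99% of all genes with deep intronic sequence). It was hth (3 peaks, 170, 131 and 96.7), which is also on the disc list. The 8 genes had a median of 9.37 kb of deep intronic sequence, and 16.6% of all genes with 5 to 20 kb were hosts. CrebA, trh and Scr, each with over 12 kb of deep intronic sequence, held no deep intronic peak, nor did sens, eyg, toe and rib. CrebA alone of the 8 had an IDR summit within 1 kb of a TSS. The genes fkh, sage, Xbp1, da, hkb and exd have no deep intronic sequence as defined here. Replicate 3's strongest regions gave 2 of the 8 genes and replicate 4's 1.

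None of 12 listed genes for neuronal channels and synapse proteins held a deep intronic peak, beside 8.99% of all genes with deep intronic sequence. They had 0.488 Mb of it, where a count of 0 allows up to 6.15 per Mb, for counting error only. The density in all deep introns was 16.7 per Mb. The 12 genes had a median of 35.8 kb, and 28.7% of all genes with 20 to 50 kb were hosts. Replicate 3's own strongest regions gave 1 of the 12 genes, with 2 regions. The acetylcholine receptor gene nAChRalpha3, which is not on the list, held 1 peak (145) in 75.1 kb of deep intronic sequence. Axon guidance and adhesion genes gave 6 of 21 (28.6%, beside 28.7% of all genes with 20 to 50 kb of deep intronic sequence). They held 7 peaks in 1.04 Mb, or 6.71 per Mb beside 16.7 overall. The hosts were Ten-a (236), fra (169), Fas3 (141), Dscam1 (126, 2 peaks), sli (125) and robo2 (114). Muscle genes gave 2 of 11 (18.2%, beside 8.99%), Mef2, the myogenic MADS-box factor gene (2 peaks, 167), and Zasp52 (127). These 11 genes had a median of 10.65 kb of deep intronic sequence, and 16.6% of all genes with 5 to 20 kb were hosts. None of 6 fat body genes with deep intronic sequence held a deep intronic peak, in 0.0184 Mb. A count of 0 allows up to 163 per Mb there. The 6 genes had a median of 2.67 kb, and 2.0% of all genes with up to 5 kb were hosts. An IDR summit within 1 kb of a TSS was found for 5 of the 6. Replicate 4's strongest regions gave 1 of the 6 genes as a host, with 1 region. A peak list holds no expression values, so these lists name no tissue of origin.

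Deep intronic summits were rich in A and T. Mean GC content was 34.2% ± 7.73 (SD over 676 windows of 50 bp on either side of the summit), against 41.7% ± 9.32 in windows centred 500 bp to either side and 40.2% in all 388757 windows that tile the deep introns. In the replicates' own strongest deep intronic regions it was 32.8% (replicate 3) and 36.3% (replicate 4). Promoter summits gave 35.3% and distal intergenic summits 32.8%, so a low GC content was common to several kinds of peak. In steps of 50 bp, GC around deep intronic summits was 44.1% at 200 bp to either side, above the 40.3% at 1000 bp to the left, and fell to 33.2% at the summit itself.

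**Figure D5:**
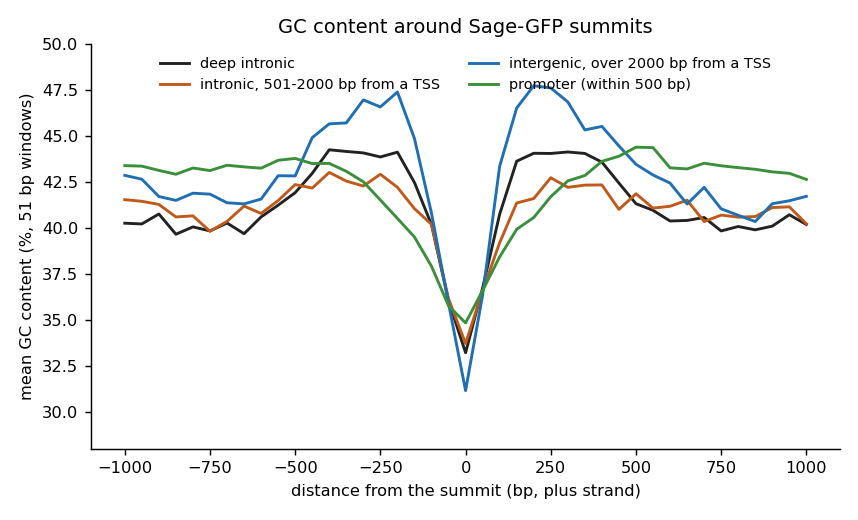
Mean GC content (y axis, %, in 51 bp windows) against distance from the summit on the plus strand (x axis, bp) for 4 kinds of IDR peak. All 4 dip at the summit. Deep intronic peaks (black) go from 44.1% at 200 bp to 33.2%, and distal intergenic peaks to 31.2%.

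E-boxes were about as frequent at deep intronic summits as in their surroundings. CANNTG was found within 50 bp of 36.4% of summits (exact binomial 95% interval 32.8 to 40.1), against 39.5% of flank windows and 39.0% of all deep intronic windows. Since E-boxes are less frequent where A and T prevail, the share in all deep intronic windows was also weighted to the GC content of the summits, which gave 34.4%. Of the 10 E-box classes, the palindrome CAGCTG was at 4.44% of summits (interval 3.01 to 6.28). All windows gave 3.53%, or 2.27% at the summits' GC content. Flanks, which hold more GC and were not weighted, gave 4.07%, close to the share at summits. Promoter peaks gave more, 6.23%, and distal intergenic peaks less, 0.81%. CACCTG was at 1.18% of deep intronic summits (interval 0.512 to 2.32), against 2.96% of all windows and 1.94% at the summits' GC content. The class CATATG was at 4.44% and CACGTG at 0.444%, where all windows at the same GC content gave 3.26% and 0.720%. In replicates 3 and 4 CAGCTG was at 4.11% and 6.02%. An E-box was found within 50 bp in 5 of the 15 strongest peaks.

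Of the other motifs, runs of 8 A stood farthest from all deep intronic windows. They were within 50 bp of 14.4% of summits (interval 11.8 to 17.2), against 7.47% of flanks, 7.02% of all windows and 9.99% at the summits' GC content. The share was 13.0% in replicate 3, 14.6% in replicate 4, 8.35% at promoter peaks and 10.5% at distal intergenic peaks. Any of the 3 forkhead cores, the sites of factors such as Fork head, was at 11.7% of summits (interval 9.36 to 14.4). All windows gave 8.14%, or 9.09% at the summits' GC content, and flanks 7.69%. Peaks in introns nearer a TSS gave more, 14.3%, promoter peaks 10.1% and distal intergenic peaks 7.66%. GATAA, the core of GATA factors, was at 22.5%, against 18.7% of all windows but 22.2% at the same GC content. GAGAG, bound by GAGA factor, was at 12.0% (all windows 11.4%, at the same GC content 8.95%, promoter peaks 17.7%). Its share in the flanks, 14.8%, was above that at the summits. TATCGATA, the DRE of housekeeping promoters, was at 0.296%, against 3.02% of promoter peaks.

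The remaining motifs, except CAGGTAG, were close to the unweighted values of deep introns as a whole. AGGTCA, the half-site of nuclear receptors, was at 2.07% of summits and 2.52% of all windows. TGACGT, a CREB core, was at 1.63% and 2.05%, AAATCA, a Senseless core, at 13.6% and 12.3%, and TGANTCA, the AP-1 site, at 2.22% and 2.07%. CAGGTAG, the Zelda site, was at 0.148% (1 summit, interval 0.00375 to 0.821) and 0.433%, and ACACACAC at 2.51% and 2.36%. At the summits' GC content all windows gave 2.24% for AGGTCA, 1.64% for TGACGT and 15.2% for AAATCA. They gave 2.21% for TGANTCA, 0.33% for CAGGTAG and 1.53% for ACACACAC. A match gives the letters of a motif and no more, and the intervals cover counting error only.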

How the data were processed

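ChIP-seq regions of Sage-GFP in whole larvae were analysed in 2 replicates. Regions were called by the authors on dm6 alignments with a control alignment, per the deposited text; the sources used here state no aligner, peak caller or version. The deposited signal per region was used only within 1 list, and read depth is unknown. Lists hold 29999 (replicate 3), 30000 (replicate 4) and 30000 (pooled) regions, and the IDR list 3292 on the arms; the dm3 lists were not used. The labels call the replicates biological, without saying whether larvae were reared apart.

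Genes and TSSs were those of Ensembl release 115 (BDGP6, dm6 coordinates) without transposable elements, and sequence that of RefSeq Release 6. A summit was the start plus the deposited offset. Regions met when they overlapped by at least 1 bp. A host is a protein-coding gene with the summit in an intron. All deep intronic sequence was tiled into windows as long as those at summits, 50 bp to either side of the centre, as background. For the weighted share, windows were weighted in steps of 5 percentage points of GC. Values were computed with Python 3.11.15 and SciPy 1.17.1, and the classification was tested on simulated data. No test was made, since there is 1 group. Named were the 15 strongest peaks, the 10 hosts with most peaks, up to 6 hosts per gene list by signal, the 3 peaks on each side of the distance limit and the 5 with the largest rank gap. Further genes of the ecdysone, signalling and other lists, vri by its density, dlp (which ties with others at 6 peaks) and nAChRalpha3 were named after their values were seen. Weighting by GC, joining of summits and the chromatin list without sbb and Tet were added after seeing the data. The peaks, lists and motifs were chosen with earlier results of these data known. All list members matched the annotation, with Eip71CD, Eip55E, Dl and Tor as MsrA, Cth, Delta and mTor. Alternatives were other TSS distances, the strongest peaks alone, each replicate alone, and other overlaps, windows and intron rules.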

Additional observations from a re-analysis of the deposited data

How the results depend on the processing

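The number of deep intronic peaks (676) was 340 with a limit of 5000 bp from a TSS and 319 in the strongest 1656 IDR peaks, and hosts (379) were 202 and 220. Under the same 5000 bp limit 8 ecdysone genes were hosts, against 13. With either replicate left out these 3 counts were 633 to 664, 365 to 369 and 11 to 14. The share met in both replicates (56.5%) was 89.7% in the strongest 1656 peaks and 97.9% when any region of the full lists counted, since weaker regions are then included. The share with an E-box (36.4%) was 60.4% in windows of 100 bp on each side, which are longer. Mean GC (34.2%) was 36.5% in those windows, 33.1% in the strongest 1656 peaks, and 32.8% to 36.3% with either replicate left out. The share in first introns (61.5%) was 66.6% beyond 1000 bp, 55.9% beyond 5000 bp and 33.9% when every transcript had to agree. The other 24 recomputed values stayed within 1.5 times (counts) or within the 95% interval of the main value, among them 655 sites after joining summits within 500 bp, chosen after seeing the data. No paired analysis was possible because the 2 samples form 1 group. Depth is unknown, so no value carries a counting error of reads.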

Other observations

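The 6-letter words that stood farthest above all deep intronic windows were chosen after their values were seen and are given with no test. AAAATA, read on either strand, was within 50 bp of 38.3% of deep intronic summits, against 22.8% of all deep intronic windows, and of 36.7% of promoter summits. AAATAA was at 36.7% against 22.1%, and AAAAAA at 35.1% against 21.4%. In the lists of single replicates, AAATAA was at 40.6% (replicate 3) and 32.7% (replicate 4) of deep intronic summits. The words farthest below were TGGCAA (5.92% against 10.4%) and AATTGC (5.92% against 10.1%).

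The weaker deep intronic regions of the pooled list, 8424 beyond the IDR list, had a mean GC content of 35.6% and an E-box at 36.3% of summits, close to the 34.2% and 36.4% of the peaks past the IDR threshold. Runs of 8 A were at 12.0% of them and at 14.4% of the peaks.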
